A study of Mus musculus with 10 samples.

Results

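Interferon-stimulated genes are the genes that cells switch on when an interferon binds its receptor, and 45 of them were followed across bulk RNA-seq libraries of mouse liver organoids. The members were a fixed list of gene symbols, looked up by Ensembl gene identifier among the 49585 genes of the deposited count tables. All 45 were found, and all 45 passed the filter on low counts, of which Oas2, Oas3, Mx1 and Mx2 passed through the Ck19-derived pair. The list was read as 36 members known best as targets of type I interferon and 9 known best as targets of interferon-gamma, although many such genes answer to both.

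The series holds liver cells of an Rb family triple knockout mouse model of hepatocellular carcinoma, taken through a sort for YFP, which reports Cre recombination of floxed alleles. It has 10 samples in 5 groups of 2. Count columns could be matched by name to 2 of the groups, the Ck19-derived and the Sox9-derived organoids, and the 3 groups called Epcam-, Epcamhigh and Thy1+ were not analysed here. Duct and progenitor cells of the liver express both Ck19, a keratin, and Sox9, a transcription factor. All groups are described as primary liver cells with no treatment, and the labels used here give no age, sex, Cre driver, allele or organoid passage for any of them. They do not state the origin of replicates (animal, culture or the same preparation), so each p-value measures the spread between these libraries, which may be technical.

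Type I interferons (the alpha and beta families) and the lambda interferons act through receptors that activate the kinases Jak1 and Tyk2. These lead to a complex that contains Stat2 and Irf9 and binds the interferon-stimulated response element in target promoters. Interferon-gamma acts through Jak1 and Jak2 and leads to binding at another promoter element, the gamma-activated site. The induced proteins sense foreign nucleic acid, degrade it, block translation or hold virus particles at the membrane, and some of them feed back on the pathway. In liver, bile duct epithelium and hepatocytes can both respond.

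The 4 organoid libraries held 31883180 to 36606008 gene-assigned fragments each. All 4 carried high levels of duct epithelial genes, with a summed level of 17099 to 18374 CPM, the count scaled to a fixed library total, over 7 such genes, including Epcam, Krt19 and Krt7. Another pair of columns bears the name Sox9 with the tag TKO, while the labels hold 1 group named for Sox9, so which pair is the labelled group was not settled; the untagged pair was used for it. The 2 TKO-tagged libraries went against an organoid label: Krt19 was 0.62 and 1.61 CPM, Krt7 was 0.66 and 0 CPM, and Alb, the albumin gene of hepatocytes, was 21740 and 13158 CPM. They also held Ptprc, the pan-leukocyte marker, at 14.1 and 15.3 CPM, against at most 0.188 CPM in the organoid libraries. Xist, the RNA of the inactive X chromosome, was 60.3 and 57.1 CPM in the Ck19-derived pair and at most 0.04 CPM in the other 4 libraries, so sex cannot be told apart from group in either comparison below. In bulk samples, fewer cells of a type and less RNA per cell cannot be told apart either.

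The promoters of 35 of the 45 members were in the RefSeq promoter table (40 promoters, assembly GRCm38.p6). The core of the response element was searched as GAAANNGAA, or TTCNNTTTC on the other strand, in the 250 bases before each start. It was found in 17 of the 40 promoters (42.5%), against 7.13% of all 32851 promoters in the table. The shares were close to each other in the classes, at 12 of 29 promoters of type I members (41.4%) and 5 of 11 promoters of interferon-gamma members (45.5%). The gamma-activated site, TTCNNNGAA, which is its own reverse complement, was found in 8 of the 40 promoters (20%), against 7.02% of all. It was in 4 of 29 promoters of type I members (13.8%) and in 4 of 11 of interferon-gamma members (36.4%).

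The stretches below are shown because they hold the response element core in front of members whose levels are described next. Each reads 5′ to 3′ on the strand of its gene, with the matches in capitals. Where matches overlap they form 1 run of capitals, as in Isg15, which has 3 matches within 1 run.
Isg15, chr4:156200856-156200916, minus strand: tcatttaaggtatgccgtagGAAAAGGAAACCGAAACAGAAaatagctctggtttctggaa
Ifit1, chr19:34640760-34640833, plus strand: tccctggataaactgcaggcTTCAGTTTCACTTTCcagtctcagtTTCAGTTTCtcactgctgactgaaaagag
Oas1a, chr5:120907526-120907565, minus strand: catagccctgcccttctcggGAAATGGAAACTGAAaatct
Oas1g, chr5:120887614-120887651, minus strand: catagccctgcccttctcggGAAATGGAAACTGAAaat
Bst2, chr8:71537568-71537622, minus strand: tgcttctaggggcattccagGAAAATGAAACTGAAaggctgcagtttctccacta
Igtp, chr11:58199502-58199550, plus strand: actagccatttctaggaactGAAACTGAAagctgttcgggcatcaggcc
Oas1a and Oas1g, neighbouring genes of 1 family, carry the same run of matches and the same bases before it. In Bst2 a gamma-activated site match begins 136 bases before the start. It overlaps the response element match that begins 130 bases before the start, but not the match that begins 124 bases before the start. A match is a string of letters in a window and was not tested as a binding site.

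**Figure D1:**
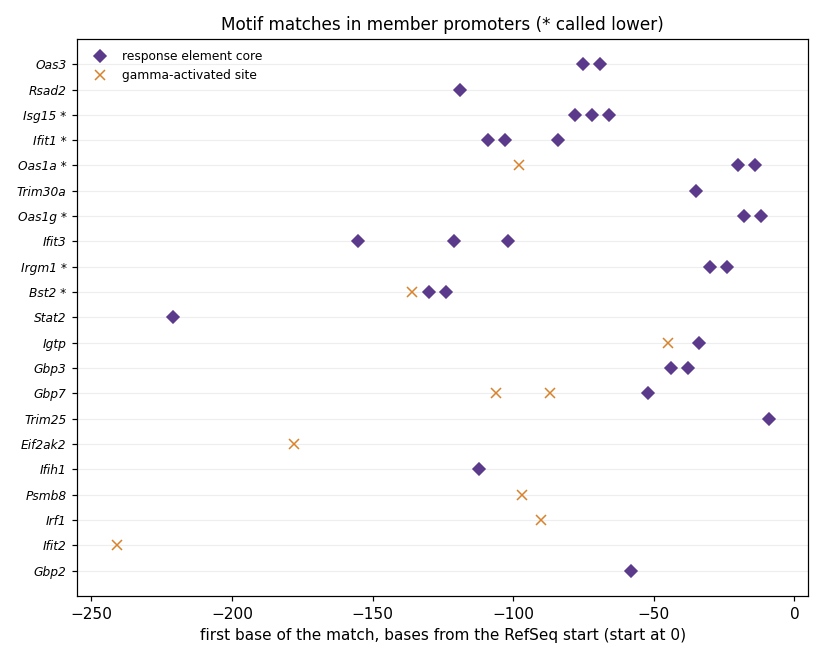
Position of each motif match (x axis, bases from the RefSeq start) in the promoters of the members that hold a match, 1 line for each gene; diamonds are response element cores, crosses are gamma-activated sites, and a star marks a gene called lower in the Sox9-derived pair. The Isg15 matches begin 78, 72 and 66 bases before the start, and the Oas1a matches 20 and 14 bases before it.

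Of the 45 interferon-stimulated genes, 12 were called lower in the Sox9-derived than in the Ck19-derived organoids, 11 of them type I members, and 33 were not called; of all genes tested, 0.384% were called lower. Summed over the 45 members, the level was 5204 and 4412 CPM in the Ck19-derived pair against 1292 and 1178 CPM in the Sox9-derived pair. For the 36 type I members the sums were 4490 and 3843 CPM against 954 and 929 CPM. The 9 interferon-gamma members summed to 714 and 569 CPM against 338 and 249 CPM. Both class sums were lower in each Sox9-derived library than in either Ck19-derived library. Most of the gap in the interferon-gamma sum was Irgm1 alone, at 427 and 357 CPM against 78.8 and 52.0 CPM. Of the 9 interferon-gamma members, 6 overlapped between the pairs, so this sum does not describe the class as a whole.

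In edgeR's quasi-likelihood test, with p-values adjusted over all 16653 genes tested, these 12 members were lower in the Sox9-derived pair at an adjusted p under 0.05, and none was called higher. Over all genes tested, 0.186% were called higher. At an unadjusted p under 0.05 there were 34 of the 45 members, and 2792 of all 16653 genes tested. The fitted log2 fold change (Sox9-derived over Ck19-derived) was below 0 for 40 members and above 0 for 5, with a median of -2.21, while the median of all genes tested was 0.01. Both Ck19-derived libraries lay above both Sox9-derived libraries for 35 members, where 26.3% of all genes did so. They lay below for 2 members, Herc6 and Gbp2, where 24.6% of all genes did. Oas2, Oas3, Mx1 and Mx2 could pass the filter on low counts through the Ck19-derived pair alone, which fixed their direction. Without these 4, 11 of 41 members were called lower, 36 were below 0, the median was -1.83, and both Ck19-derived libraries lay above for 31.

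The classes were counted apart. Of the 36 type I members, 11 were called lower, 34 had a log2 fold change below 0, the median was -2.66, and both Ck19-derived libraries were above for 33. Without Oas2, Oas3, Mx1 and Mx2, whose direction the filter fixed, 10 of 32 type I members were called lower and 30 were below 0. Their median was then -2.28, and both Ck19-derived libraries were above for 29. Of the 9 interferon-gamma members, 1 was called lower, 6 were below 0, the median was -0.77, and both Ck19-derived libraries were above for 2. The difference between the classes was not itself tested. The interferon-gamma median rests on single libraries: leaving out replicate 1 of the Ck19-derived pair, or replicate 2 of the Sox9-derived pair, gave -0.24, and it was -1.27 without Sox9-derived replicate 1. The calls sat close to the threshold, with adjusted p between 0.0213 (Usp18) and 0.0495 (Irf9), and without either Ck19-derived library edgeR called none of the 45 (28 members at an unadjusted p under 0.05 without replicate 1, 34 without replicate 2), although all 12 kept their direction. The count rose without either Sox9-derived library. DESeq2 on all 4 libraries called 32 lower, among them Oas2, Oas3, Mx1 and Mx2, whose direction the filter fixed.

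**Figure D2:**
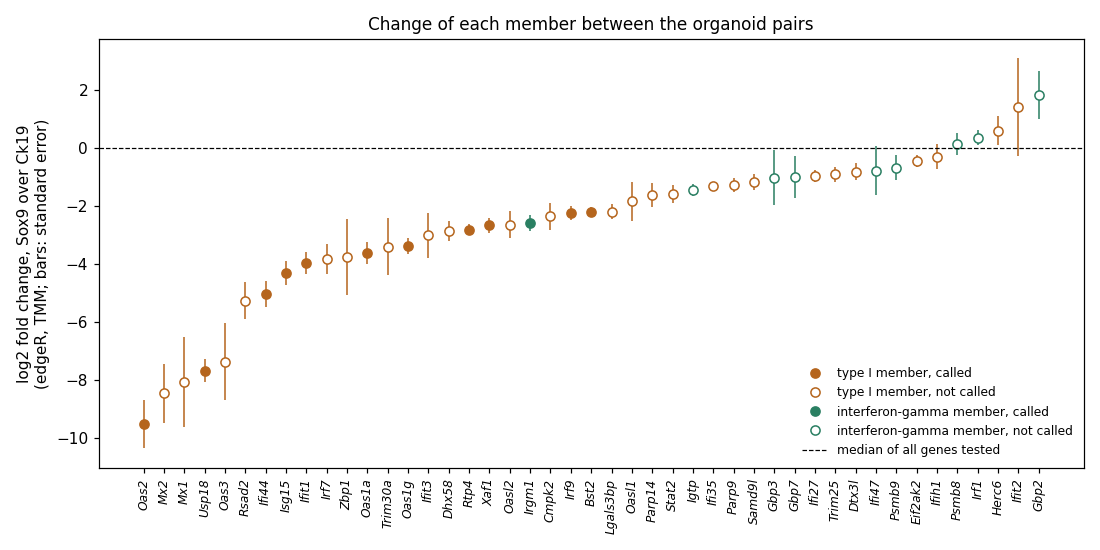
Log2 fold change of each member, Sox9-derived over Ck19-derived organoids (y axis), with its standard error as a bar; filled points are members called at an adjusted p under 0.05, and the dashed line is the median of all genes tested. The values run from -9.53 for Oas2 to 1.84 for Gbp2, and 11 of the 12 filled points are type I members.

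Among the transcription factors of the response, Irf9, the subunit that gives the complex with Stat2 its DNA specificity, fell. Irf9 (ENSMUSG00000002325, chr14:55603571-55610030, plus strand) measured 208 and 179 CPM in the Ck19-derived pair, against 34.6 and 48.02 CPM in the Sox9-derived ones. The log2 fold change was -2.22 (SE 0.24, adjusted p = 0.0495, edgeR). Irf7, which drives the interferon-alpha genes, was at 359 and 226 CPM against 12.5 and 28.5 CPM. Its log2 fold change of -3.83 (SE 0.52) was larger than that of Irf9, but its libraries were further apart and it missed the threshold (adjusted p = 0.0706, edgeR). Stat2, which joins Irf9 in the complex, was at 49.4 and 33.8 CPM against 11.97 and 15.6 CPM (log2 fold change -1.59, SE 0.32, adjusted p = 0.119, edgeR). Irf1, an activator induced mainly by interferon-gamma, showed no such gap: 98.6 and 81.6 CPM against 140.1 and 91.8 CPM, with overlapping groups (log2 fold change 0.36, SE 0.26, adjusted p = 0.552, edgeR).

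None of the 4 sensors of foreign nucleic acid was called, and their sizes ranged widely. Dhx58, a helicase that modulates RNA sensing, was at 66.0 and 53.8 CPM against 6.17 and 10.3 CPM (log2 fold change -2.86, SE 0.35, adjusted p = 0.0637, edgeR). Zbp1, which binds nucleic acid in the Z form and can start cell death, had the most negative value of the 4, at -3.75 (SE 1.30, adjusted p = 0.254). That value rests on 1 library, since Zbp1 was at 10.48 and 0.947 CPM in the Ck19-derived pair against 0.273 and 0.573 CPM in the Sox9-derived pair. Eif2ak2, the kinase that halts translation on double-stranded RNA, was at 48.1 and 44.4 CPM against 33.0 and 34.7 CPM. Ifih1, a sensor of long double-stranded RNA, was at 21.0 and 10.9 CPM against 15.4 and 10.7 CPM, and its groups overlapped.

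The OAS family, whose enzymes answer double-stranded RNA by making the oligoadenylates that activate RNase L, had 3 of 6 members called lower. Without Oas2 and Oas3, whose direction the filter fixed, it was 2 of 4, with both Ck19-derived libraries above both Sox9-derived libraries in all 4 and a median log2 fold change of -3.01. Oas2 (ENSMUSG00000032690, chr5:120730333-120749853, minus strand) was at 21.0 and 27.2 CPM in the Ck19-derived libraries. The Sox9-derived libraries held 0 and 0.0603 CPM. In fragments this was 1560 against 2, a depth-scaled ratio of 842 with a 95% interval of 233 to 6958 that covers counting error only. Its call (adjusted p = 0.0389, edgeR) is given as a description, since it passed the filter through the pair where it is high. Oas3 had a like pattern at 25.8 and 9.37 CPM against 0 and 0.211 CPM, but its Ck19-derived libraries were further apart and it was not called (adjusted p = 0.104, edgeR).

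Oas1a (ENSMUSG00000052776, chr5:120896256-120907521, minus strand), of the family's catalytic branch, was at 153 and 159 CPM against 8.69 and 16.7 CPM. Its log2 fold change was -3.61 (SE 0.38, adjusted p = 0.0467, edgeR). Its neighbour Oas1g (ENSMUSG00000066861, chr5:120876142-120887613, minus strand) was at 45.9 and 50.7 CPM against 4.07 and 5.16 CPM, a log2 fold change of -3.38 (SE 0.27, adjusted p = 0.0389, edgeR). Both Ck19-derived levels were close to each other in each gene, and both genes fell by a similar size. They are near-identical copies, and fragments that aligned to more than 1 place were dropped in counting, so the split between them is uncertain. Oasl2 was at 133 and 115 CPM against 11.6 and 28.0 CPM (adjusted p = 0.103). Oasl1, known as a brake on Irf7 translation, had the smallest log2 fold change of the family, -1.83 (SE 0.68), from 22.1 and 9.16 CPM against 2.51 and 6.30 CPM (adjusted p = 0.279, edgeR).

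Of 9 antiviral effectors, Ifit1 and Bst2 were called lower, and without Mx1 and Mx2, whose direction the filter fixed, 6 of 7 had both Ck19-derived libraries above both Sox9-derived libraries (median log2 fold change -2.35). Ifit1 (ENSMUSG00000034459, chr19:34640871-34650009, plus strand), which binds viral RNA that lacks the host cap marks, was at 110 and 63.9 CPM against 6.12 and 5.04 CPM. The log2 fold change was -3.96 (SE 0.37, adjusted p = 0.0406, edgeR), and with limma-voom the adjusted p was 0.0533. Bst2 (ENSMUSG00000046718, chr8:71534255-71537456, minus strand), tetherin, which holds budding virus at the membrane, was at 237 and 212 CPM against 48.2 and 48.6 CPM. It fell by 2.21 on the log2 scale (SE 0.17, adjusted p = 0.0386, edgeR), the smallest fitted change among the 12 called members.

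The dynamin-like GTPases Mx1 and Mx2 were near or at 0 in the Sox9-derived libraries. Mx2 was at 7.09 and 5.86 CPM against 0 and 0.0302 CPM, which is 418 fragments against 1 and a depth-scaled ratio of 451 (95% counting interval 80.5 to 17863, adjusted p = 0.0617 with edgeR). Mx1 was at 1.54 and 0.458 CPM against 0 and 0 CPM, or 64 fragments against none, and was at least 23.0-fold lower when the Sox9-derived pair is set at a floor of 3 fragments over the pair (adjusted p = 0.137, edgeR). Rsad2, viperin, which makes a chain-terminating nucleotide, was at 35.0 and 14.3 CPM against 0.765 and 0.513 CPM (adjusted p = 0.0630, edgeR). Its genomic neighbour Cmpk2, a nucleotide kinase, was at 39.8 and 22.9 CPM against 4.43 and 7.90 CPM. Samd9l, which restrains translation and cell growth, was at 97.7 and 67.9 CPM against 41.8 and 32.2 CPM.

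The IFIT genes did not share 1 pattern. Ifit3 was at 58.3 and 13.01 CPM against 3.82 and 5.10 CPM (adjusted p = 0.166). Ifit2, in the same cluster, was at 7.43 and 0.0611 CPM against 15.1 and 5.19 CPM, with overlapping groups and a log2 fold change of 1.42 (SE 1.69, adjusted p = 0.730, edgeR). Both genes differed strongly between the Ck19-derived libraries.

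In the ISG15 system, a ubiquitin-like protein and the enzymes that attach and remove it, Isg15 and Usp18 were called lower and the 2 other members were not. Usp18 (ENSMUSG00000030107, chr6:121245906-121270917, plus strand), the protease that removes Isg15 and blocks the type I receptor, was at 159 and 124 CPM against 0.492 and 0.875 CPM. Its log2 fold change was -7.70 (SE 0.40), and its adjusted p of 0.0213 (edgeR) was the lowest of the 45 members. Isg15 (ENSMUSG00000035692, chr4:156199424-156200818, minus strand) was at 79.2 and 71.6 CPM against 2.54 and 5.01 CPM, a log2 fold change of -4.32 (SE 0.42, adjusted p = 0.0410, edgeR). The ligase Trim25 was at 27.4 and 25.1 CPM against 15.1 and 13.1 CPM (log2 fold change -0.90). Herc6, the mouse ISG15 ligase, went the other way at 2.60 and 4.58 CPM against 6.23 and 4.74 CPM (log2 fold change 0.61, SE 0.50, adjusted p = 0.598, edgeR), and 13.7% of its exon bases are shared with another annotated gene.

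Parp9, Parp14 and Dtx3l, which form an ADP-ribosylation and ubiquitin ligase group, had modest gaps and no call. Parp14 had the largest, at 15.6 and 9.80 CPM against 3.82 and 4.49 CPM (log2 fold change -1.61, SE 0.41, adjusted p = 0.162, edgeR). Parp9 was at 71.0 and 57.3 CPM against 23.4 and 29.4 CPM. Its partner Dtx3l had the smallest, at 23.6 and 27.2 CPM against 17.6 and 11.5 CPM (log2 fold change -0.80, SE 0.31, adjusted p = 0.297, edgeR). In all 3 the pairs of libraries did not overlap.

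Of the 7 other type I members, Ifi44, Rtp4 and Xaf1 were called lower, and in all 7 both Ck19-derived libraries lay above. Ifi44 (ENSMUSG00000028037, chr3:151730922-151749960, minus strand) was at 152 and 84.1 CPM against 4.34 and 2.77 CPM, a log2 fold change of -5.05 (SE 0.45, adjusted p = 0.0389 with edgeR and 0.0513 with limma-voom). Rtp4 (ENSMUSG00000033355, chr16:23520291-23614222, plus strand), a receptor transport protein, was at 271 and 263 CPM against 35.5 and 40.6 CPM, a log2 fold change of -2.81 (SE 0.18, adjusted p = 0.0335, edgeR). Both pairs of Rtp4 levels were tight, and 13.9% of its exon bases are shared with another gene. Xaf1 (ENSMUSG00000040483, chr11:72301629-72313733, plus strand), which promotes cell death, was at 38.1 and 35.2 CPM against 5.60 and 5.94 CPM, a log2 fold change of -2.67 (SE 0.25, adjusted p = 0.0406, edgeR).

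Of the more abundant members, Lgals3bp, Ifi35 and Ifi27 missed the threshold. Lgals3bp, a secreted glycoprotein that binds galectins, was at 1334 and 1301 CPM against 351 and 225 CPM (log2 fold change -2.20, SE 0.25, adjusted p = 0.0570 with edgeR and 0.0394 with limma-voom). Ifi35 was at 186 and 181 CPM against 73.8 and 74.0 CPM (adjusted p = 0.0622, edgeR), and 16.8% of its exon bases are shared with another gene. Ifi27, a small membrane protein, had the smallest change of these 7, at 355 and 332 CPM against 154 and 200 CPM (log2 fold change -0.96, SE 0.20, adjusted p = 0.127, edgeR). Trim30a, a regulator of inflammatory signalling, had a larger but less even gap, at 19.3 and 6.35 CPM against 0.437 and 1.99 CPM (log2 fold change -3.40, SE 0.98, adjusted p = 0.196, edgeR).

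The interferon-gamma members did not share 1 pattern. Irgm1 (ENSMUSG00000046879, chr11:48861968-48871683, minus strand), an immunity-related GTPase that regulates its relatives on membranes, was at 427 and 357 CPM against 78.8 and 52.0 CPM. It fell by 2.59 on the log2 scale (SE 0.27, adjusted p = 0.0467, edgeR) and was the 1 interferon-gamma member called. Igtp, another GTPase of that family, was at 57.0 and 58.0 CPM against 19.8 and 22.8 CPM, with tight pairs, and was not called (log2 fold change -1.43, adjusted p = 0.0772, edgeR). Ifi47, of the same family, was at 9.63 and 8.89 CPM against 9.29 and 1.60 CPM, so that the second Sox9-derived library stood low.

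The guanylate-binding proteins, GTPases that attack the vacuoles of intracellular pathogens, showed no shared gap. Gbp2 had the highest fitted value of the 45 members, 1.84 (SE 0.83, adjusted p = 0.355, edgeR), from 5.05 and 0.977 CPM against 9.21 and 12.5 CPM. Gbp3 was at 9.79 and 1.496 CPM against 3.58 and 2.05 CPM, and Gbp7 was at 7.81 and 3.36 CPM against 1.53 and 4.10 CPM. In all 3 the first Ck19-derived library was above the second by more than 1 on the log2 scale.

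The immunoproteasome subunits Psmb8 and Psmb9, which shape peptides for display to T cells, overlapped between the groups. Psmb8 was at 54.9 and 27.1 CPM against 43.9 and 47.1 CPM (log2 fold change 0.15, SE 0.38, adjusted p = 0.885, edgeR). Psmb9 was at 43.7 and 30.7 CPM against 31.6 and 15.2 CPM (log2 fold change -0.67, SE 0.42, adjusted p = 0.497, edgeR). Of the 9 interferon-gamma members, Irf1, Ifi47, Gbp3, Gbp7, Psmb8 and Psmb9 overlapped between the pairs, Irgm1 and Igtp lay higher in both Ck19-derived libraries, and Gbp2 lay lower in both.

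**Figure D3:**
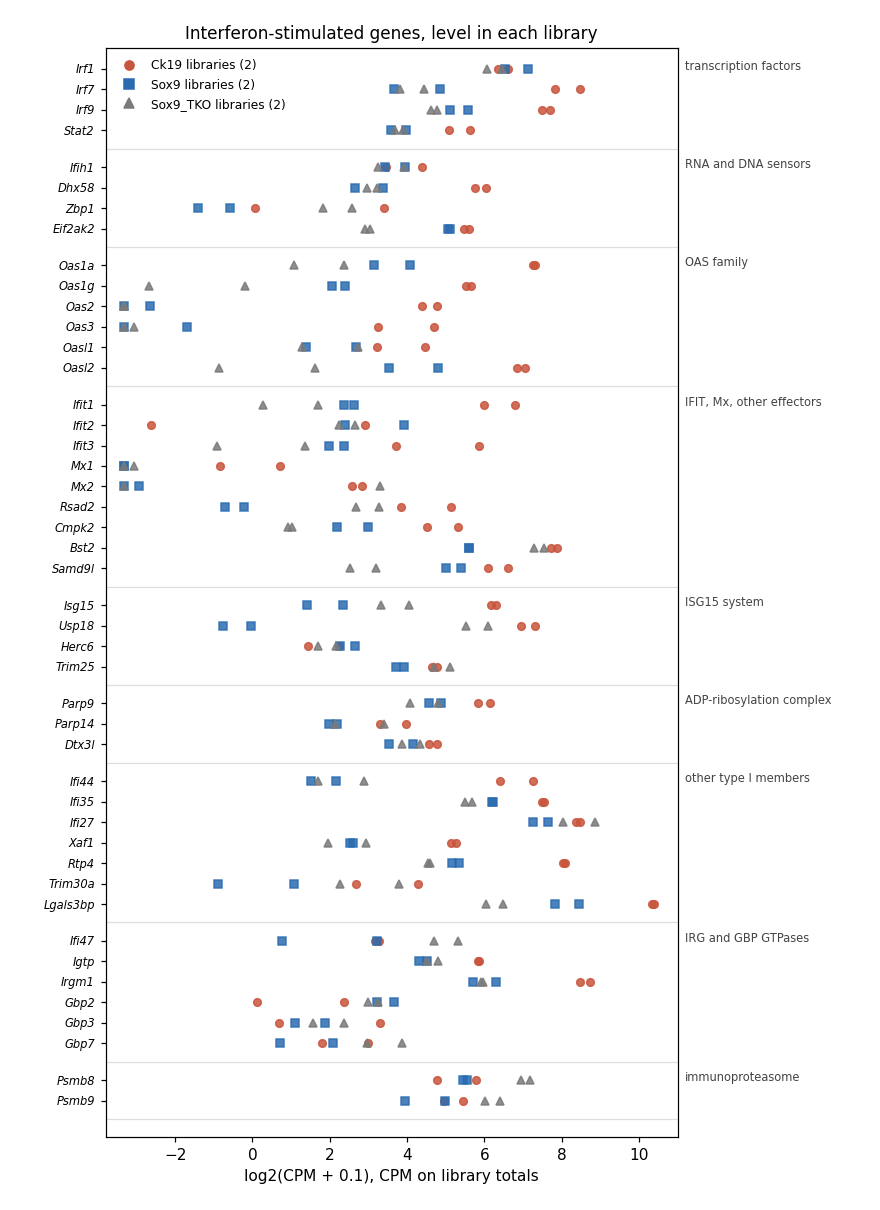
Level of each member in each library as log2(CPM + 0.1) (x axis), 1 line for each gene grouped by role; circles are Ck19-derived, squares Sox9-derived and triangles TKO-tagged libraries. Usp18 and Oas2 show circles far to the right of the squares, while Psmb8 and Irf1 show them mixed.

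The replicate libraries also differed among themselves. Replicate 1 of the Ck19-derived pair was above replicate 2 for 39 of the 45 members (86.7%), against 48.9% of all genes tested. The difference exceeded 1 on the log2 scale for 12 of the 45 members, where it did so for 13.7% of all genes. Among these members were Zbp1, Ifit2, Ifit3, Mx1, Rsad2, Gbp2 and Psmb8. In the Sox9-derived pair replicate 1 was above for 15 members (33.3%, against 50.4% of all genes). There 9 of the 45 members differed by more than 1, and 19.7% of all genes did. The median size of the difference over the members was 0.38 in the Ck19-derived pair and 0.52 in the Sox9-derived pair, against 0.35 and 0.38 over all genes.

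Levels were compared between genes per kilobase of exon, as FPKM. In the Ck19-derived pair Lgals3bp led with a mean of 463 FPKM, followed by Bst2 at 249 and Ifi27 at 234. Bst2 and Ifi27 could not be ordered beyond their spread, since Ifi27 was at 242 and 226 FPKM and Bst2 at 263 and 235 FPKM. Then came Rtp4 at 125 and Ifi35 at 106 FPKM, whose libraries did not overlap, and Isg15 at 99.7 FPKM. In the Sox9-derived pair Ifi27 led at 120.5 FPKM with Lgals3bp at 101.1 FPKM, and these overlapped. Bst2 followed at 53.6 FPKM and Ifi35 at 42.8 FPKM. Irf1, 14th in the Ck19-derived pair, was 5th in the Sox9-derived pair at 29.2 FPKM, and Isg15, 6th in the first, was 17th in the second at 4.99 FPKM.

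The gap between the organoid pairs can be set against the levels of the TKO-tagged libraries. Their summed level was 1279 and 1552 CPM, next to 1292 and 1178 CPM for the Sox9-derived and 5204 and 4412 CPM for the Ck19-derived libraries. The class sums were 895 and 1078 CPM for type I members and 384 and 474 CPM for interferon-gamma members. The median over type I members of the pair mean, on the log2(CPM + 0.1) scale, was 5.45 in the Ck19-derived, 2.80 in the Sox9-derived and 2.91 in the TKO-tagged pair. For the interferon-gamma members it was 5.20, 4.42 and 5.0. In these medians the TKO-tagged pair was nearer the Sox9-derived pair for type I members and nearer the Ck19-derived pair for interferon-gamma members, in libraries of another cellular make-up.

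Taken by member, the TKO-tagged libraries lay below both organoid pairs for 12 members, all of type I. They overlapped the range of the Sox9-derived pair alone for 13, that of the Ck19-derived pair alone for 7 and both ranges for 5. They lay between the pairs for 5, namely Rsad2, Bst2, Isg15, Usp18 and Igtp, and above both for Ifi47, Psmb8 and Psmb9, which are interferon-gamma members. No share over all genes is given for these positions, so the counts are a description and not a trait of the members. On this CPM scale both Ck19-derived libraries lay above both TKO-tagged libraries for 58.9% of all genes. Oas2 was listed with no fragment in either TKO-tagged library, at least 909-fold below the Ck19-derived pair at the same floor. Usp18, at 68.4 and 45.9 CPM, lay far above the Sox9-derived libraries. Bst2, at 187 and 155 CPM, lay closer to the Ck19-derived libraries than to the Sox9-derived ones. Mx2 was at 0 and 9.77 CPM, so its 2 TKO-tagged libraries spanned both organoid ranges.

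Fitted against the same Ck19-derived libraries, 20 members were called lower in the TKO-tagged pair and 3 higher with edgeR, where 14.0% of all 17938 genes tested were called lower and 15.0% higher. Both Ck19-derived libraries lay above both TKO-tagged libraries for 29 members, where 58.9% of all genes did, so this count is near the background. Of the type I members 19 were called lower and none higher, with a median log2 fold change of -1.79. Those called lower include Oas2, Oas3 and Mx1, each with at most 1 fragment in either TKO-tagged library. These genes passed the filter on low counts through the Ck19-derived pair, which fixed their direction, and the type I median includes them. Of the interferon-gamma members Irgm1 was called lower and Ifi47, Psmb8 and Psmb9 higher, with a median of 1.73. Psmb8 was at 122 and 145 CPM and Ifi47 at 25.7 and 39.7 CPM in the TKO-tagged libraries.

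These medians depend on how the libraries are scaled. The trimmed mean (TMM) factors were 1.28 and 1.32 for the Ck19-derived and 0.750 and 0.788 for the TKO-tagged libraries, and with library totals alone the median of all genes moved from -0.07 to -0.82. Then 25 members were called lower and 2 higher, where 5158 of all 17938 genes tested were called lower and 1960 higher. Oas2, Oas3 and Mx1, whose direction the filter fixed, were again among those called lower. The medians were -2.54 for type I and 0.99 for interferon-gamma members, and Psmb9 was no longer called (adjusted p = 0.0517, edgeR). Bst2 turned from 0.36 to -0.40 and Irf1 from 0.54 to -0.21 on the log2 scale, with no call for either. The comparison shares its Ck19-derived libraries with the one between the organoid pairs, so its values stand beside that one and add no independent evidence. Leukocyte and stromal markers were present in the TKO-tagged libraries, at 829 and 715 CPM summed over 7 myeloid genes and 297 and 152 CPM over 5 fibroblast and stellate genes. Their part in the higher interferon-gamma members was not tested.

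**Figure D4:**
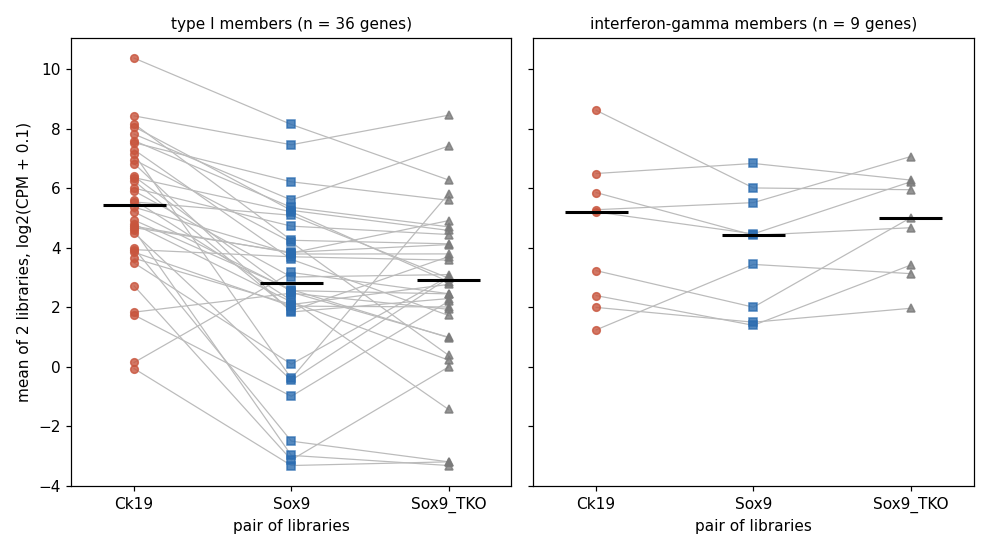
Mean log2(CPM + 0.1) of each member (y axis) in the Ck19-derived, Sox9-derived and TKO-tagged pairs of 2 libraries, type I members on the left and interferon-gamma members on the right; grey lines join a gene and black bars are medians over genes. The type I medians are 5.45, 2.80 and 2.91, and the interferon-gamma medians are 5.20, 4.42 and 5.0.

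The wider pathway was read from a list of 36 genes outside the members, of which 25 passed the filter on low counts and none was called between the organoid pairs with edgeR. The 10 interferon ligand genes together had 7 and 2 fragments in the Ck19-derived pair against 0 and 5 in the Sox9-derived pair. None of them could be tested, and Ifnb1, the interferon-beta gene, had no fragment in any library. The 6 receptor genes differed little, with log2 fold changes from -0.21 to 0.71 and a lowest adjusted p of 0.250. Ifnar1, the type I receptor's first chain, was at 44.9 and 33.8 CPM against 80.9 and 47.8 CPM, and Ifngr1, a chain of the interferon-gamma receptor, at 433 and 386 CPM against 410 and 414 CPM.

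The signal carriers Jak1, Jak2, Tyk2 and Stat3 had log2 fold changes between 0.16 and 0.66. Adar, which edits double-stranded RNA and limits its sensing, was at 27.6 and 35.5 CPM against 7.02 and 9.56 CPM. It had the lowest adjusted p of these 25 genes (0.0880, edgeR), and 16.8% of its exon bases are shared with another gene. Ddx58, the RNA sensor RIG-I, was at 26.6 and 26.6 CPM against 10.82 and 11.6 CPM (adjusted p = 0.119, edgeR). Cgas, the sensor of cytosolic DNA, lay higher in both Sox9-derived libraries, at 4.05 and 6.29 CPM against 18.2 and 12.5 CPM (log2 fold change 1.57, adjusted p = 0.164, edgeR).

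**Figure D5:**
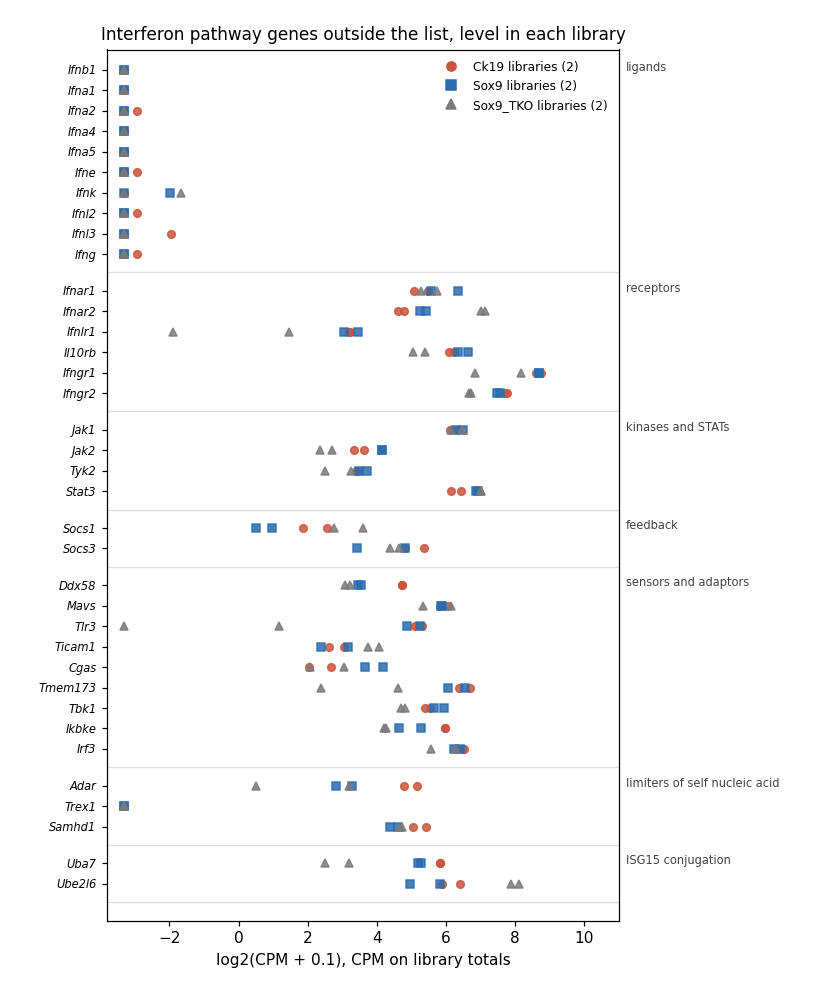
Level of each pathway gene outside the members in each library as log2(CPM + 0.1) (x axis), grouped by role, with circles for Ck19-derived, squares for Sox9-derived and triangles for TKO-tagged libraries. The ligand genes sit at or near the floor in all 6 libraries, and Adar shows both circles to the right of both squares.

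Markers of other cell types are given beside the gap in the members. The 5 hepatocyte genes summed to 123 and 159 CPM in the Ck19-derived and 171 and 545 CPM in the Sox9-derived libraries, most of it Ttr, the transthyretin gene, at 103 and 149 CPM against 162 and 543 CPM (adjusted p = 0.314, edgeR). Ptprc was at 0.188 and 0.0305 CPM in the Ck19-derived and 0.0546 and 0.121 CPM in the Sox9-derived libraries. The 7 myeloid genes summed to 84.8 and 47.6 CPM against 18.4 and 26.6 CPM, of which Cd68, a lysosomal protein gene, was at 78.1 and 43.5 CPM against 6.86 and 23.6 CPM (adjusted p = 0.244, edgeR) and Csf1r, a growth factor receptor gene, at 5.83 and 3.21 CPM against 11.15 and 2.53 CPM, while Lyz2 was at most 0.211 CPM. The 3 plasmacytoid dendritic cell genes, markers of the strongest interferon producers, summed to 6.18 and 4.12 CPM against 4.29 and 0.151 CPM. Most of this was Irf8, at 5.30 and 4.06 CPM against 4.21 and 0.0905 CPM. Siglech was at most 0.0627 CPM and Ccr9 at most 0.815 CPM in the organoid libraries. The 6 T and NK cell genes summed to at most 0.550 CPM and the 4 B cell genes to 3.51 and 2.41 CPM against 0.492 and 0.905 CPM. Few of these markers could be tested: 2 of 5 hepatocyte, 3 of 7 myeloid, 1 of 3 plasmacytoid, 1 of 6 T and NK and 1 of 4 B cell genes passed the filter, Ptprc did not, and none of those tested was called with edgeR. In the fibroblast and stellate list none of 5 genes passed, with sums of at most 0.784 CPM, and the part of any such cells in the gap was not tested. The share of fragments dropped for low mapping quality also moved with the groups, at 40.0% and 38.8% in the Ck19-derived and 33.2% and 34.4% in the Sox9-derived pair; its part was not tested.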

How the data were processed

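Bulk RNA-seq fragments of mouse liver samples were counted per gene by the authors with featureCounts 1.5.0-p3 on Ensembl 87 gene models (GRCm38), per the file headers, and the deposited values are raw counts. The headers record a mapping quality of at least 10, primary alignments, both ends mapped and no use of strand, so fragments from near-identical copies were lost and those of overlapping or antisense genes cannot be told apart. The submitters' processing notes name STAR 2.5.4b. No duplicate was marked in the deposited summaries, so PCR copies count as fragments, and intervals and floors cover counting error only. Whether molecular identifiers were used is not given in the sources used here.

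Of the count columns, 6 were used and 4 matched no label and were not used. Symbols were matched for 99.5% of 49585 gene identifiers. Levels are CPM on the total of assigned fragments, which was 31883180 to 59664959 per library, or log2(CPM + 0.1). FPKM divides CPM by exon length in kilobases. The 2 Sox9-derived libraries were compared with the 2 Ck19-derived libraries by edgeR 4.0.16 (quasi-likelihood, TMM scaling, filterByExpr with a minimum count of 10, Benjamini-Hochberg adjustment over all genes tested, threshold 0.05), with limma 3.58.1 and DESeq2 1.42.0 as alternatives. The TKO-tagged columns were an alternative for the Sox9-derived group. Library scaling, DESeq2 and limma-voom for these columns, and the counts over all genes, were added after seeing the data. The scripts were tested on simulated data. Members described in full were every called member, the transcription factors, and the members with the largest and smallest change of each role; the members and all lists were chosen with earlier results of these data known. Promoter sequences are RefSeq's for GRCm38.p6. A gene of the pathway list is not reported here.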

Additional observations from a re-analysis of the deposited data

How the results depend on the processing

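The 12 called members kept their direction in every alternative that used the untagged columns, and all 12 were still called with relative log expression factors, library totals, no count filter, a minimum of 1 CPM in 2 libraries and DESeq2; with limma-voom 10 were. DESeq2 called 32 members lower and none higher (all genes 863 lower, 649 higher), and edgeR without a count filter called 22 (322 and 184). The 32 include Oas2, Oas3, Mx1 and Mx2, whose direction the filter fixed. With 1 CPM in 2 libraries all genes gave 117 lower and 56 higher. The cause of these differences was not tested. Leaving out 1 library, edgeR called 0 to 28 members lower (all genes 0 to 909 lower, 0 to 485 higher). Both settings with 0 calls left out a Ck19-derived library, where 1692 and 1611 genes had an unadjusted p under 0.05; the lone library is then assumed to vary like the other pair. The median log2 fold change ranged from -2.36 to -1.53 over all members, from -2.87 to -2.15 for type I and from -1.27 to -0.24 for interferon-gamma members. The medians over all members and for type I include Oas2, Oas3, Mx1 and Mx2 wherever these passed the filter. Single members that changed sign were Ifih1 (-0.72 to 0.26), Ifi47 (-2.51 to 0.0015), Gbp3 (-1.83 to 0.92) and Psmb8 (-0.30 to 0.76). With the replicate number as a block, edgeR called 0 members and 0 genes in either direction, with 1 residual degree of freedom left. In that fit 32 members and 2665 genes had an unadjusted p under 0.05. Same-numbered libraries deviated together with a correlation of 0.0582 over 16653 genes. With 2 libraries in each group, this value cannot settle whether same-numbered libraries share an origin.

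With the TKO-tagged columns in place of the untagged ones, 20 members were called lower and 3 higher (all genes 2507 and 2683), and the medians were -0.88 over all, -1.79 for type I and, reversed, 1.73 for interferon-gamma members. The calls lower and the type I median include Oas2, Oas3 and Mx1, whose direction the filter fixed in this comparison. The members that turned positive were Ifih1 (0.35), Zbp1 (0.43), Mx2 (0.31), Bst2 (0.36), Trim25 (0.95), Dtx3l (0.20), Ifi27 (0.83), Trim30a (0.26), Ifi47 (2.57), Gbp3 (0.21), Gbp7 (1.73) and Psmb9 (1.75). In that comparison, library totals gave medians of -1.63, -2.54 and 0.99, with 5158 genes called lower and 1960 higher. That scaling turned Irf1 to -0.21, Ifih1 to -0.39, Zbp1 to -0.30 and Mx2 to -0.41. It also turned Bst2 to -0.40, Dtx3l to -0.56, Trim30a to -0.47 and Gbp3 to -0.52. DESeq2 on the TKO-tagged columns called 21 members lower and 6 higher (all genes 2933 lower, 3529 higher). The median difference in level between the organoid pairs was -2.23 on the log2(CPM + 0.1) scale and -1.74 with a pseudocount of 1 CPM, which understates the change of low genes. Depth limits the members at 0 to 2 fragments in the Sox9-derived pair (Oas2, Mx1, Mx2), whose folds are ratios with wide intervals or bounds.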
